A study of Mus musculus with 20 samples.

Results

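Glucocorticoid receptor target genes are described here through 9 of the 45777 genes in the deposited table: Fkbp5, Tsc22d3, Errfi1, Dusp1, Zbtb16, Cdkn1a, Cdkn1c, Sult1a1 and Pdk4. They were given by name, as genes known to answer to the receptor, and chosen with earlier results of these data known. Each is present once in the table. The study measured RNA of whole mouse uterine horns before implantation and asked whether immune cells placed in the uterus change a uterus in which implantation was blocked with RU486. Levels are given as TPM, a transcript measure scaled to gene length and to a fixed total in each library, so the depth of each library is unknown.

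All 20 mice were pregnant B6D2F1 females of 8 to 12 weeks, and the uterus was collected at 18 h on day 3.5. The control group received no RU486 and no cells. The IF group (implantation failure) was injected under the skin with 3 mg/kg RU486 on the morning of day 3.5, the day of collection. The PBMC group had the same RU486 dose and, on day 1.5, 50000 cultured blood mononuclear cells from non-pregnant females in each horn. The PBMC-hCG group differed from it in that the cells had been cultured with hCG (human chorionic gonadotropin) at 5 IU/mL. Each group held 5 mice. The control and IF groups had no injection into the horn, so the cells and the injection cannot be told apart in comparisons with those groups. Mice are named by group and replicate number, as in control 2, and values follow those numbers, which give no order.

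Glucocorticoids act through a nuclear receptor, the product of Nr3c1, which is held by chaperones until hormone binds and then regulates genes from DNA elements shared with the progesterone receptor. RU486 (mifepristone) blocks both the progesterone and the glucocorticoid receptor. Many of the best known targets are brakes: inhibitors of inflammatory signalling, of growth factor signalling and of the cell cycle, and a co-chaperone that damps the receptor itself.

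The tissue was checked against marker lists. The most abundant myometrium marker was Tagln (mean 2317 TPM), the most abundant stroma marker Dcn (2935 TPM) and the most abundant epithelium marker Krt18 (337 TPM), so each compartment of the uterus was present. The 7 ovary and oviduct markers summed to between 50.5 and 89 TPM per library, most of it Pax8, and 1 of them was at 0 in all libraries. In RNA of a whole horn, fewer cells of a type and less RNA per cell cannot be told apart.

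Control 2 stood apart from the other control mice. Its median correlation with its own group was 0.963, against 0.98 to 0.99 in the other 19 libraries. The 8 adipose markers, of which Cfd was the most abundant and none was at 0 everywhere, summed to 7.49, 896, 47.7, 9.21 and 11 TPM in the control mice. In the IF mice the sums were 5.57, 5.12, 8.27, 7.33 and 182 TPM, in the PBMC mice 5.47, 12.8, 7.16, 70.3 and 7.14 TPM and in the PBMC-hCG mice 21.6, 5.48, 8.62, 8.63 and 5.9 TPM. Control 2, IF 5, PBMC 4 and PBMC-hCG 1 had the highest sum of their groups, PBMC-hCG 1 by the smallest gap. The 16 cell cycle genes, led by Pcna, summed to 566, 156, 514, 480 and 856 TPM in the control mice, lowest in control 2. Their sums were 358, 487, 227, 438 and 475 TPM in the IF mice, lowest in IF 3, 360, 406, 400, 397 and 405 TPM in the PBMC mice, lowest in PBMC 1, and 341, 359, 393, 235 and 327 TPM in the PBMC-hCG mice, lowest in PBMC-hCG 4. Control 2, IF 3 and PBMC-hCG 4 also had the highest Tsc22d3 of their groups, while in the PBMC group it was highest in PBMC 4 and not in PBMC 1. The part of these features in the results was not tested, and values of the 9 genes against control are given with and without control 2.

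RU486 alone was accompanied by lower levels of 5 of the 9 genes. In IF against control, limma called 5 genes lower (Fkbp5, Tsc22d3, Zbtb16, Errfi1 and Sult1a1) and 2 higher (Cdkn1a and Pdk4) at an adjusted p under 0.05. Of all 18706 genes tested, 8.53% were called lower and 13.4% higher. Every IF value of those 5 genes lay below every control value, a pattern shown by 4.27% of all genes tested. Without control 2 the count was again 2 higher and 5 lower, and without IF 5 it was 2 higher and 5 lower. The share of all genes called in either direction was 21.9% with all mice, 26.8% without control 2 and 17.8% without IF 5. The 2 higher became 1 without control 1, 3 or 4 or IF 2 or 3, in each case through Pdk4. The 9 genes had a median log2 fold change of -1.16, beside 0.022 over all genes tested. As the genes were chosen with earlier results of these data known, the shares over all genes describe them and are no test of the set.

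Cells without hCG were followed by no call. In PBMC against IF limma called 0 of the 9 genes, and 0 had an unadjusted p under 0.05, or 1 without IF 3 or PBMC 5. Over all genes tested 0% were called higher and 0% lower, while 1271 of 18706 genes, 6.79%, had an unadjusted p under 0.05. That number was 2726 without PBMC 5, 833 without PBMC 4 and 773 without IF 5. Against control, the PBMC group had the same 5 genes lower, each with no overlap between the groups, and Dusp1 higher. The background was 6.7% lower, 12.8% higher and 4.08% with all PBMC values below all control values. Without control 2, 3 genes were called higher and 5 lower, the additions being Cdkn1a and Pdk4. The share of all genes called in either direction also rose, from 19.5% with all mice to 24.7% without control 2. Dusp1 lost its call without control 1, 3 or 4 or PBMC 3, 4 or 5, which left 0 higher and 5 lower, while 6, 7, 7, 7, 7 and 7 of the 9 genes in that order had an unadjusted p under 0.05.

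Cells cultured with hCG were followed by calls in both directions. In PBMC-hCG against IF, Tsc22d3, Zbtb16, Sult1a1 and Cdkn1c were called higher and Cdkn1a lower, where 7.61% of all genes tested were called higher and 5.99% lower. All 5 calls depended on single mice, as the paragraph on that comparison gives in full. Against control, the PBMC-hCG group had Fkbp5, Tsc22d3, Zbtb16, Errfi1 and Sult1a1 lower and Pdk4 higher, beside a background of 11.6% lower and 20.2% higher. For 4 of the 5, Tsc22d3 being the exception, all PBMC-hCG values lay below all control values, as for 5.07% of genes tested. Without control 2 the count was 1 higher and 4 lower, and without PBMC-hCG 1 it was 1 higher and 4 lower, Tsc22d3 losing its call in both. The share of all genes called in either direction was 31.8% with all mice, 40.2% without control 2 and 32.1% without PBMC-hCG 1. The comparisons with control share the same 5 control mice.

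Markers of tissue compartments were also called between the treated groups and control. In IF against control the calls were 4 higher and 1 lower of 7 epithelium markers, 3 higher and 0 lower of 8 myeloid markers, 1 higher and 1 lower of 7 stroma markers and 0 higher and 1 lower of 6 myometrium markers. The epithelium number higher was 2 without each of control 1, 3, 4 and 5 and IF 1, 3 and 4 in turn, that of stroma markers higher 2 without each of control 1 and 3 and IF 5 in turn, that of myeloid markers 1 without each of control 2 and 4 and IF 1 and 2 in turn and 0 without each of control 3 and 5 and IF 5 in turn (unadjusted 5, 4 and 4) and that of myometrium markers 0 without each of control 1, 3, 4 and 5 and IF 1, 2, 3 and 5 in turn (unadjusted 3, 1, 1, 1, 1, 1, 1 and 3) and 3 without control 2. Limma called 0 of 9 T, B and NK cell markers and 0 of 6 reference genes there, where 1 and 0 had an unadjusted p under 0.05. In PBMC-hCG against control the calls were 0 higher and 5 lower of 6 myometrium markers, 5 higher and 1 lower of 7 epithelium markers, 2 higher and 1 lower of 7 stroma markers, 3 higher and 0 lower of 8 myeloid markers, 3 higher and 0 lower of 9 T, B and NK cell markers and 0 higher and 2 lower of 6 reference genes. The myometrium number was 3 without each of control 3 and 5 and PBMC-hCG 2, 3 and 5 in turn, that of T, B and NK cell markers 1 without each of control 1 and PBMC-hCG 3 and 4 in turn and that of stroma markers lower 4 without control 2. In PBMC against control the calls were 4 higher and 0 lower of epithelium, 2 higher and 1 lower of stroma and 2 higher and 0 lower of myeloid markers. Limma called 0 of the myometrium, T, B and NK cell and reference lists there, where 3, 0 and 0 had an unadjusted p under 0.05. Over all genes tested, 13.4% were called higher and 8.53% lower in IF against control. Those shares were 12.8% and 6.7% in PBMC and 20.2% and 11.6% in PBMC-hCG against control, so the marker counts are read against them. The share of tissue composition in the values of the 9 genes was not tested. Leaving out mice was chosen for these lists after seeing the data.

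**Figure D1:**
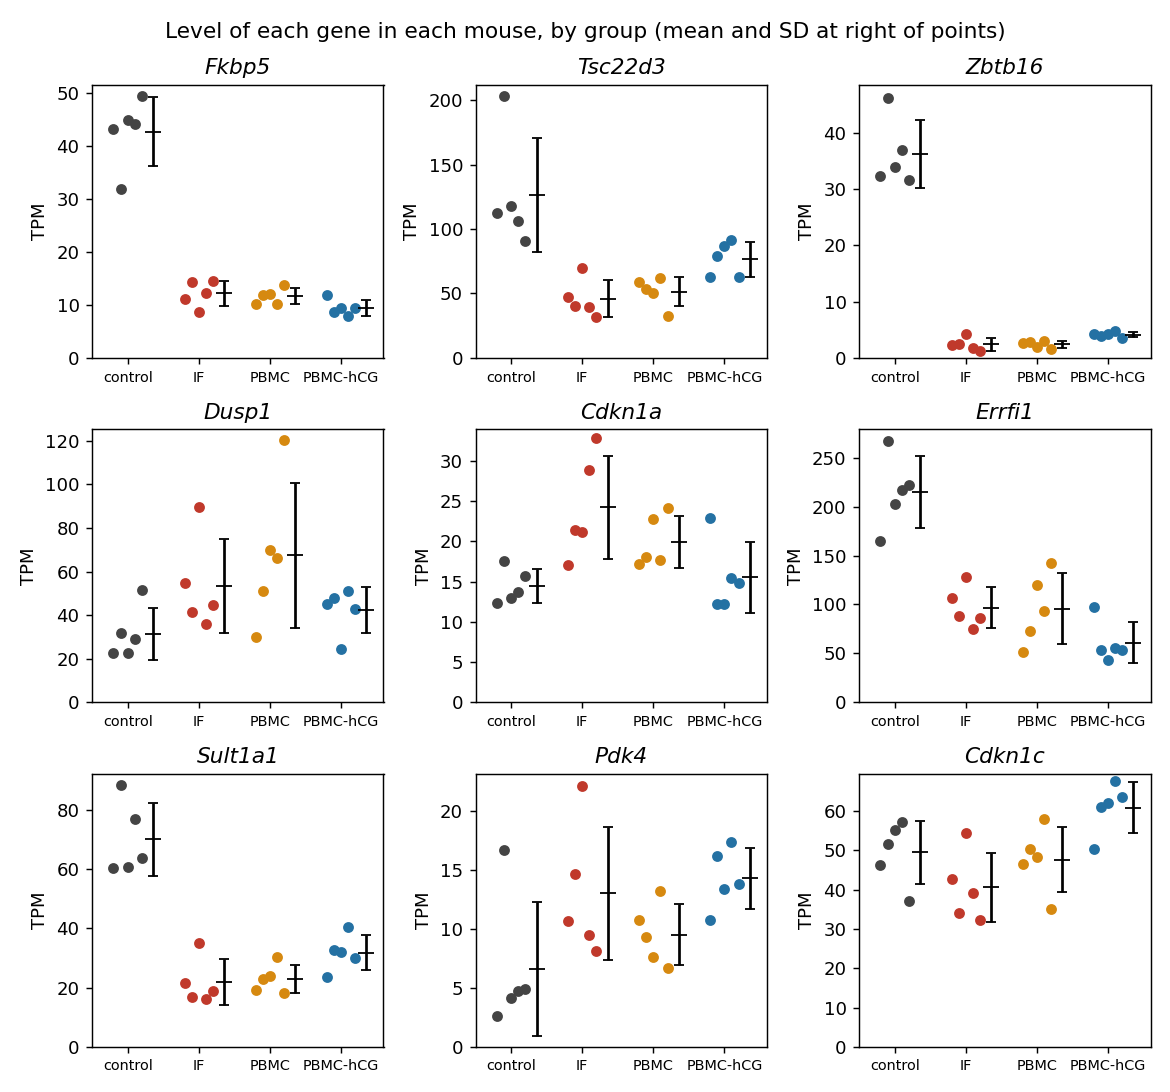
Level in TPM (vertical axes, from 0) of each of the 9 genes in each mouse by group, with the group mean and SD (n = 5) at the right of the points. Fkbp5, Zbtb16, Errfi1 and Sult1a1 had every control mouse above every mouse given RU486, and control 2 is the highest control mouse for Tsc22d3, Zbtb16, Cdkn1a, Errfi1, Sult1a1 and Pdk4 and the lowest for Fkbp5.

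Fkbp5 encodes a co-chaperone of Hsp90 that lowers the receptor's affinity for hormone, and its induction by the receptor forms a feedback loop. The gene (gene ID 14229) lies at chr17:28398753-28486149 on GRCm38.p6. It stood at 43.3, 31.8, 44.8, 44.2 and 49.4 TPM in the control mice and at 11.2, 14.3, 8.67, 12.2 and 14.5 TPM in the IF mice. The lowest control value, in control 2, was well above the highest IF value. The PBMC mice had 10.1, 11.9, 12, 10.2 and 13.8 TPM and the PBMC-hCG mice 11.8, 8.56, 9.48, 7.8 and 9.32 TPM, so all 15 mice given RU486 lay well under the control range. Fkbp5 was 3.51-fold lower in IF than in control (log2 fold change -1.81, SE 0.15, n = 5 and 5, adjusted p = 1.34e-07), with 5 of 5 IF mice below the control mean. It was also lower in PBMC, at -1.87 ± 0.15 (adjusted p = 8.70e-08), and in PBMC-hCG, at -2.17 ± 0.15 (adjusted p = 2.02e-08), with 5 of 5 mice below the control mean in each. Without control 2 these values were -1.91 (adjusted p = 5.39e-08), -1.97 (adjusted p = 5.36e-08) and -2.27 (adjusted p = 8.21e-09) in that order.

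Tsc22d3 encodes GILZ, a leucine zipper protein that restrains NF-kB and AP-1 and carries part of the anti-inflammatory action of glucocorticoids. It lies on the X chromosome at chrX:140539528-140600522 (gene ID 14605). Control mice had 113, 203, 118, 106 and 90.9 TPM and IF mice 47.6, 40.5, 69.7, 39.4 and 32 TPM. Control 2 was far above the other control mice and IF 3 above the other IF mice, yet the groups did not overlap. In the PBMC mice the level was 59.1, 53.2, 50.6, 62 and 32.5 TPM, and in the PBMC-hCG mice 62.9, 78.7, 87.1, 91.6 and 62.5 TPM. Every PBMC-hCG mouse was above every PBMC mouse, although the gap between 62.5 and 62 TPM was narrow, and PBMC-hCG 4 was just above the lowest control mouse. The fall was 2.73-fold in IF against control (log2 fold change -1.45, SE 0.22, n = 5 and 5, adjusted p = 1.24e-04), with 5 of 5 IF mice below the control mean. In PBMC against control it was -1.27 ± 0.22 (adjusted p = 5.11e-04), and in PBMC-hCG against control -0.68 ± 0.22 (adjusted p = 0.0257), each with 5 of 5 mice below the control mean. Without control 2 the values were -1.26 (adjusted p = 1.68e-04) in IF and -1.08 (adjusted p = 7.91e-04) in PBMC. The call in PBMC-hCG was lost without control 2, at -0.49 (adjusted p = 0.0595), without PBMC-hCG 1, at -0.61 (adjusted p = 0.0562), and without PBMC-hCG 5, at -0.61 (adjusted p = 0.0635).

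Dusp1 encodes a phosphatase that switches off MAP kinases, and it is also induced within minutes by stress and growth factors. Its position is chr17:26505591-26508472 (gene ID 19252). The control mice had 22.6, 31.7, 22.4, 29.2 and 51.4 TPM, with control 5 high, and the IF mice 55, 41.5, 89.7, 35.9 and 44.7 TPM, with IF 3 high, so the ranges overlapped. The PBMC mice spread from 30.2 to 120 TPM (30.2, 50.9, 69.8, 66.2 and 120), the widest range of the 4 groups for this gene. In the PBMC-hCG mice it was 45, 48, 24.3, 51.2 and 42.8 TPM, with PBMC-hCG 3 lowest. Dusp1 was called in PBMC against control alone, 2.04-fold higher (log2 fold change 1.03, SE 0.32, n = 5 and 5, adjusted p = 0.0306), with 4 of 5 PBMC mice above the control mean. That call was lost without each of control 1, 3 and 4 and PBMC 3, 4 and 5 in turn (adjusted p from 0.056 to 0.0806), with genes above 0 in any library (adjusted p = 0.052) and with the PBMC and control mice fitted alone (adjusted p = 0.0706). Without control 2 it was 1.05 (adjusted p = 0.0354). In IF against control the value was 0.75 ± 0.32 (adjusted p = 0.105) with 5 of 5 mice above the control mean, at 0.77 (adjusted p = 0.114) without control 2, and without control 5 it passed the threshold at 0.95 (adjusted p = 0.0456). In PBMC-hCG against control it was 0.45 ± 0.32 (adjusted p = 0.306) with 4 of 5 mice above the control mean, and 0.47 (adjusted p = 0.303) without control 2. Of the 12 immediate early genes tested, 6 were called higher and 0 lower in IF against control, and 8 and 0 in PBMC against control, the 8 becoming 5 without each of control 3 and PBMC 3 and 4 in turn and 4 without PBMC 5. In PBMC-hCG against control 2 were called higher and 0 lower, the former 1 without each of control 1 and 2 and PBMC-hCG 4 in turn, 0 without each of control 3 and PBMC-hCG 2 and 5 in turn (unadjusted 2, 2 and 3) and 4 without PBMC-hCG 3. Their summed levels, led by Egr1, were 526, 541, 469, 794 and 948 TPM in control and 1330.2, 1142, 1678, 1161 and 1159 TPM in IF mice. They were 708, 1103, 1417, 1429 and 2300.3 TPM in PBMC and 908, 1545, 554, 1383 and 1046 TPM in PBMC-hCG mice, highest in PBMC 5 as for Dusp1, and none of the genes was at 0 in all libraries. Their part in the Dusp1 values was not tested.

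Errfi1 encodes Mig6, which inhibits the epidermal growth factor receptor and in the uterus is a known target of progesterone as well as of glucocorticoids. It maps to chr4:150853796-150868889 (gene ID 74155) and had the highest control mean of the 9 genes. Control mice stood at 165, 267, 203, 217 and 222 TPM and IF mice at 106, 87.9, 128, 75.2 and 86 TPM. No IF mouse reached the lowest control mouse. PBMC mice had 51.3, 72.7, 120, 93.1 and 142 TPM, a wide range with PBMC 1 lowest and PBMC 5 highest. PBMC-hCG mice had 97.3, 53.2, 43.4, 55.8 and 54 TPM, where PBMC-hCG 1 was well above the other 4. Errfi1 was 2.23-fold lower in IF than in control (log2 fold change -1.16, SE 0.24, n = 5 and 5, adjusted p = 0.00199) and 3.63-fold lower in PBMC-hCG (log2 fold change -1.86, SE 0.24, n = 5 and 5, adjusted p = 2.53e-05). In PBMC it was -1.24 ± 0.24 (adjusted p = 0.00131). In each of these comparisons 5 of 5 treated mice were below the control mean. Without control 2 the values were -1.08 (adjusted p = 0.00439) for IF, -1.15 (adjusted p = 0.00302) for PBMC and -1.78 (adjusted p = 4.91e-05) for PBMC-hCG.

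Zbtb16 encodes PLZF, a zinc finger transcription factor that both glucocorticoids and progesterone induce, in endometrial stroma among other tissues. The gene spans chr9:48651797-48836225 (gene ID 235320). It was at 32.3, 46.3, 33.9, 37 and 31.6 TPM in control mice and at 2.29, 2.46, 4.32, 1.75 and 1.28 TPM in IF mice, with a wide gap between the groups. The PBMC mice had 2.69, 2.75, 1.92, 3.09 and 1.66 TPM and the PBMC-hCG mice 4.17, 3.94, 4.18, 4.69 and 3.6 TPM. All PBMC-hCG values were above all PBMC values, and among the IF mice only IF 3 reached the PBMC-hCG range. Zbtb16 fell 15.4-fold from control to IF (log2 fold change -3.95, SE 0.23, n = 5 and 5, adjusted p = 2.84e-09), with 5 of 5 mice below the control mean. It was 14.6-fold lower in PBMC (log2 fold change -3.87, SE 0.23, n = 5 and 5, adjusted p = 3.78e-09) and 8.56-fold lower in PBMC-hCG (log2 fold change -3.10, SE 0.23, n = 5 and 5, adjusted p = 6.07e-08), again in 5 of 5 mice. Without control 2 these values were -3.85 (adjusted p = 1.30e-08), -3.78 (adjusted p = 1.81e-08) and -3.01 (adjusted p = 1.95e-07).

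Cdkn1a encodes p21, an inhibitor of cyclin-dependent kinases that p53 and the glucocorticoid receptor both induce. It lies at chr17:29090979-29100722 (gene ID 12575), on the same chromosome as Fkbp5 and Dusp1. Control mice had 12.4, 17.5, 12.9, 13.8 and 15.7 TPM and IF mice 17.1, 21.4, 21.2, 28.8 and 32.8 TPM, so that only control 2 was above the lowest IF mouse. PBMC mice had 17.2, 18.1, 22.8, 17.7 and 24.1 TPM. PBMC-hCG mice had 22.9, 12.2, 12.2, 15.5 and 14.8 TPM, with PBMC-hCG 1 high and the other 4 inside the control range or just under it. Cdkn1a was 1.64-fold higher in IF than in control (log2 fold change 0.71, SE 0.18, n = 5 and 5, adjusted p = 0.00833), with 5 of 5 IF mice above the control mean, and at 0.79 (adjusted p = 0.00495) without control 2. In PBMC against control the value was 0.46 ± 0.18 (adjusted p = 0.0857) with 5 of 5 mice above the control mean, and it passed without control 2 at 0.53 (adjusted p = 0.0493), as with the PBMC and control mice fitted alone (adjusted p = 0.0413). In PBMC-hCG against control it was 0.073 ± 0.18 (adjusted p = 0.795) with 3 of 5 mice above the control mean, and 0.14 (adjusted p = 0.577) without control 2, and its sign turned without PBMC-hCG 1, at -0.076 (adjusted p = 0.768). Of 11 other p53 target genes tested, 3 were called higher and 2 lower in IF against control, with a median log2 fold change of -0.025.

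Cdkn1c encodes p57, another inhibitor of cyclin-dependent kinases, expressed from the maternal allele. It lies at chr7:143458339-143461059 (gene ID 12577). Control mice had 46.3, 51.5, 55.1, 57.3 and 37 TPM and IF mice 42.8, 34.1, 54.4, 39 and 32.4 TPM, with wide overlap. The PBMC mice had 46.6, 50.2, 48.3, 58 and 35 TPM and the PBMC-hCG mice 50.3, 60.9, 61.9, 67.6 and 63.5 TPM. In the last group 4 of 5 mice were above every other mouse of the 4 groups, and PBMC-hCG 1 was not. Cdkn1c was not called against control in any group: the value was -0.29 ± 0.15 (adjusted p = 0.17) in IF, -0.056 ± 0.15 (adjusted p = 0.84) in PBMC and 0.31 ± 0.15 (adjusted p = 0.12) in PBMC-hCG, with 4 of 5 IF mice below, 3 of 5 PBMC mice below and 5 of 5 PBMC-hCG mice above the control mean. Without control 2 these were -0.28 (adjusted p = 0.22), -0.037 (adjusted p = 0.899) and 0.33 (adjusted p = 0.111). Without IF 3 it passed in IF at -0.41 (adjusted p = 0.0476). Of 10 other imprinted genes tested, 2 were called higher and 1 lower in IF against control, the latter 2 without control 2. Of the 16 cell cycle genes, 0 were called higher and 1 lower in that comparison, and the number lower was 7 without control 2 and 0 without each of control 3, 4 and 5 and IF 3 in turn (unadjusted 1, 1, 1 and 1).

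Sult1a1 encodes a phenol sulfotransferase that inactivates drugs and hormones. Its position is chr7:126672865-126690443 (gene ID 20887), on the same chromosome as Cdkn1c. It was at 60.4, 88.3, 60.6, 76.8 and 63.6 TPM in control mice and 21.5, 16.9, 35.2, 16.3 and 19 TPM in IF mice, where IF 3 stood above the other 4. PBMC mice had 19, 22.8, 23.9, 30.3 and 18.3 TPM and PBMC-hCG mice 23.6, 32.6, 32.1, 40.4 and 30.1 TPM. All 15 treated mice were below all 5 control mice. The level fell 3.3-fold in IF against control (log2 fold change -1.72, SE 0.19, n = 5 and 5, adjusted p = 4.49e-06), with 5 of 5 mice below the control mean. In PBMC against control it was -1.62 ± 0.19 (adjusted p = 1.17e-05) and in PBMC-hCG -1.14 ± 0.19 (adjusted p = 2.39e-04), with 5 of 5 mice below the control mean in both. Without control 2 the values were -1.63 (adjusted p = 1.04e-05) in IF, -1.53 (adjusted p = 2.63e-05) in PBMC and -1.05 (adjusted p = 4.91e-04) in PBMC-hCG.

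Pdk4 encodes a kinase that shuts off pyruvate dehydrogenase and so favours fatty acids over glucose as fuel. It lies at chr6:5483351-5496278 (gene ID 27273) and had the lowest control mean of the 9 genes. Control mice had 2.62, 16.7, 4.1, 4.71 and 4.87 TPM, where control 2 was far above the other 4, and IF mice had 10.7, 14.6, 22.1, 9.47 and 8.15 TPM. PBMC mice had 10.7, 9.35, 7.63, 13.2 and 6.7 TPM and PBMC-hCG mice 10.8, 16.2, 13.4, 17.4 and 13.8 TPM. Apart from control 2, every control mouse was below every mouse given RU486. Pdk4 was 2.27-fold higher in IF than in control (log2 fold change 1.19, SE 0.36, n = 5 and 5, adjusted p = 0.0236), with 5 of 5 mice above the control mean, and at 1.59 (adjusted p = 2.25e-04) without control 2. The IF call was lost without each of control 1, 3 and 4 and IF 2 and 3 in turn (adjusted p from 0.051 to 0.0706), and with the IF and control mice fitted alone (adjusted p = 0.103). In PBMC-hCG against control it was 2.63-fold higher (log2 fold change 1.40, SE 0.36, n = 5 and 5, adjusted p = 0.00664) in 5 of 5 mice, and 1.80 (adjusted p = 5.48e-05) without control 2. In PBMC against control the value was 0.79 ± 0.36 (adjusted p = 0.136) with 5 of 5 mice above the control mean, and without control 2 it passed at 1.20 (adjusted p = 0.00271). Of 10 fatty acid oxidation genes tested, 2 were called higher and 0 lower in IF against control and 4 and 0 in PBMC-hCG against control, the 4 becoming 2 without each of control 1, 3 and 5 and PBMC-hCG 2 and 4 in turn.

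**Figure D2:**
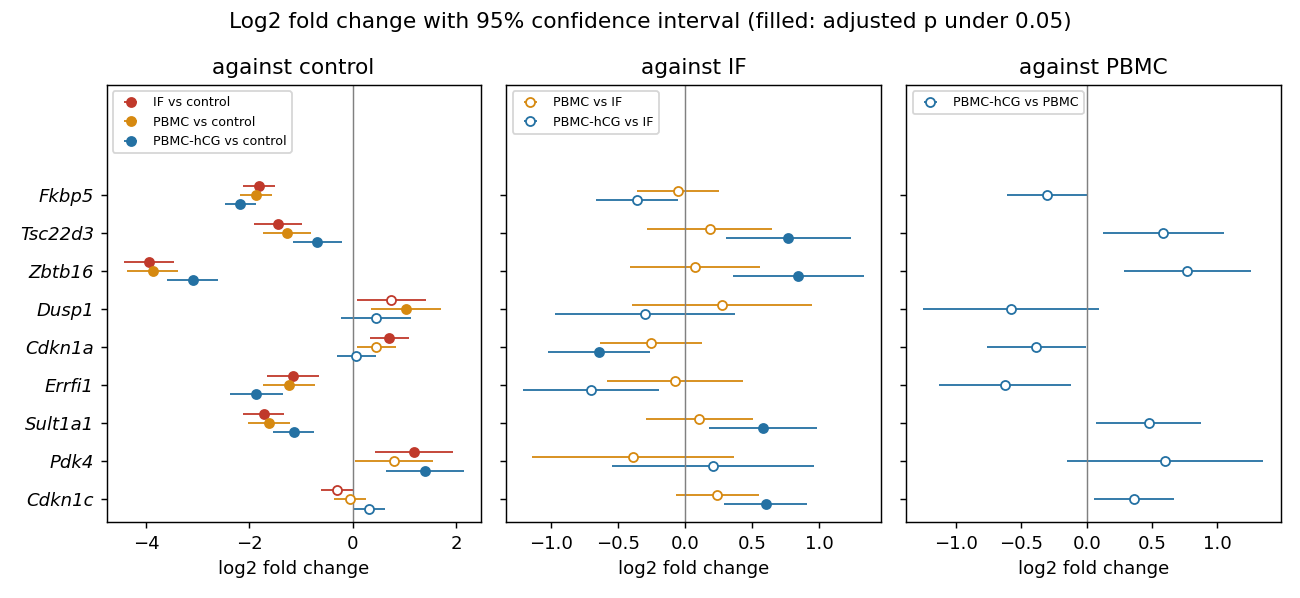
Log2 fold change (horizontal axes) of each gene against control, against IF and against PBMC, with 95% confidence intervals from limma (n = 5 mice a group); filled points had an adjusted p under 0.05. Zbtb16 had the lowest value in IF against control, -3.95, and no point is filled for PBMC against IF or PBMC-hCG against PBMC.

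Levels in TPM are per length and can be set side by side. In control mice the order from the highest mean to the lowest was Errfi1, Tsc22d3, Sult1a1, Cdkn1c, Fkbp5, Zbtb16, Dusp1, Cdkn1a and Pdk4, and the ranges of neighbours were apart only between Tsc22d3 and Sult1a1, Sult1a1 and Cdkn1c and Dusp1 and Cdkn1a. Means ran from 215 ± 37 TPM for Errfi1 to 6.6 ± 5.7 TPM for Pdk4 (SD, n = 5). In IF mice the order from the highest mean to the lowest was Errfi1, Dusp1, Tsc22d3, Cdkn1c, Cdkn1a, Sult1a1, Pdk4, Fkbp5 and Zbtb16, and the ranges of neighbours were apart only between Fkbp5 and Zbtb16. The means there ran from 96.7 ± 20.7 TPM to 2.42 ± 1.16 TPM, and Zbtb16 had moved from above 76.8% of tested genes to above 25.2%. In PBMC mice the order from the highest mean to the lowest was Errfi1, Dusp1, Tsc22d3, Cdkn1c, Sult1a1, Cdkn1a, Fkbp5, Pdk4 and Zbtb16, and the ranges of neighbours were apart only between Cdkn1c and Sult1a1, Cdkn1a and Fkbp5 and Pdk4 and Zbtb16. In PBMC-hCG mice the order from the highest mean to the lowest was Tsc22d3, Cdkn1c, Errfi1, Dusp1, Sult1a1, Cdkn1a, Pdk4, Fkbp5 and Zbtb16, and the ranges of neighbours were apart only between Sult1a1 and Cdkn1a and Fkbp5 and Zbtb16. In that group Tsc22d3 had the highest mean, 76.5 ± 13.5 TPM.

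The comparison of PBMC-hCG with IF asks what hCG-cultured cells were followed by in a uterus given RU486. Tsc22d3 was 1.71-fold higher (log2 fold change 0.77, SE 0.22, n = 5 and 5, adjusted p = 0.0363), with 5 of 5 PBMC-hCG mice above the IF mean. Zbtb16 was 1.8-fold higher (log2 fold change 0.85, SE 0.23, n = 5 and 5, adjusted p = 0.0326), also in 5 of 5 mice, and its mean of 4.12 ± 0.4 TPM (SD, n = 5) compares with 36.2 ± 6 TPM in control. Sult1a1, at 0.58 ± 0.19 (adjusted p = 0.0499), and Cdkn1c, at 0.60 ± 0.15 (adjusted p = 0.0287), were each higher in 5 of 5 mice. Cdkn1a was lower, at -0.64 ± 0.18 (adjusted p = 0.0349), in 5 of 5 mice. For each of these 5 genes the groups overlapped, and only through IF 3 or PBMC-hCG 1. Errfi1 (-0.70 ± 0.24, adjusted p = 0.0573), Fkbp5 (-0.36 ± 0.15, adjusted p = 0.0934), Dusp1 (-0.30 ± 0.32, adjusted p = 0.529) and Pdk4 (0.21 ± 0.36, adjusted p = 0.711) were not called, with 4, 5 and 5 of 5 mice below and 4 of 5 above the IF mean. With 1 mouse left out, Dusp1 ran from -0.42 to -0.095 and Pdk4 from 0.067 to 0.42.

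None of the 5 calls in PBMC-hCG against IF held under every left-out mouse. Without IF 2, 4 or 5 or PBMC-hCG 2, 3, 4 or 5, limma called 0 of the 9 genes, while 6, 7, 6, 6, 7, 6 and 7 in that order had an unadjusted p under 0.05. The adjusted p ran from 0.0569 to 0.121 for Tsc22d3 and from 0.0569 to 0.11 for Zbtb16. For Cdkn1a the range was 0.0604 to 0.119 and for Cdkn1c 0.0545 to 0.0992. Sult1a1 lost its call without IF 1 as well (0.063 to 0.139). Over all 18706 genes tested the calls went from 2544 to 8, 14, 0, 1, 0, 18 and 34 without those 7 mice in turn, and to 5061 without IF 3 and 4166 without PBMC-hCG 1. Without PBMC-hCG 1, 7 of the 9 genes were called, Errfi1 at -0.89 (adjusted p = 0.0163) and Fkbp5 at -0.44 (adjusted p = 0.0399) being the additions. Without IF 3, 6 were called, with Fkbp5 added at -0.47 (adjusted p = 0.0206). With genes above 0 in any library as the filter, only Cdkn1c was called, and with the PBMC-hCG and IF mice fitted alone Tsc22d3, Cdkn1c and Errfi1 were. Sult1a1 was also not called with a pseudocount of 1, median scaling, quantile normalization or no variance trend, while Errfi1 passed with median scaling, at -0.76 (adjusted p = 0.0494). The log2 fold changes of the 5 genes kept their sign whichever mouse was left out, from 0.66 to 0.93 for Tsc22d3, for example. None of the 9 genes met the study's cut-offs on the limma values here, a fold change of at least 2 with an unadjusted p under 0.05, beside 2.31% of all genes tested. An unadjusted p under 0.05 alone was reached by 7 of 9 and by 35% of all genes tested.

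PBMC-hCG against PBMC asks what hCG in the culture added. Limma called 0 of the 9 genes, while 6 had an unadjusted p under 0.05, 4 higher and 2 lower, where 16.2% of all genes tested did. The 6 became 1 without PBMC 5 and 3 without PBMC-hCG 4. The number over all genes, 3024, was 1391 without PBMC 5, 1891 without PBMC 3, and 1949, 1903 and 1926 without PBMC-hCG 2, 3 and 4. Over all genes tested 0.00535% were called higher and 0.00535% lower, 1 gene each, and 7 genes in all without PBMC-hCG 1. Tsc22d3 (0.59 ± 0.22, adjusted p = 0.283) and Zbtb16 (0.77 ± 0.23, adjusted p = 0.266) had all 5 PBMC-hCG mice above all 5 PBMC mice, a pattern seen in 1.99% of genes tested. Sult1a1 had 0.48 ± 0.19 (adjusted p = 0.284) with 5 of 5 mice above the PBMC mean, and Cdkn1c 0.36 ± 0.15 (adjusted p = 0.284) with 5 of 5. Errfi1 had -0.63 ± 0.24 (adjusted p = 0.283) with 4 of 5 mice below it. Cdkn1a had -0.39 ± 0.18 (adjusted p = 0.306), also with 4 of 5 mice below the PBMC mean. In PBMC against IF the 9 log2 fold changes lay between -0.39 for Pdk4 and 0.28 for Dusp1, with a lowest adjusted p of 0.78. In that comparison Pdk4 ran from -0.54 to -0.18 and Dusp1 from 0.033 to 0.53 when 1 mouse was left out.

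The receptor itself and the enzymes that set its ligand were read beside the targets. Nr3c1 had 21.3, 18.7, 20.7, 21.4 and 19.1 TPM in control mice and 24.4, 23.4, 27.4, 23.8 and 19.9 TPM in IF mice. It had 28.9, 26.7, 27.1, 28.2 and 22.8 TPM in PBMC mice and 28.6, 33.9, 32.2, 31.6 and 29.2 TPM in PBMC-hCG mice, where each value was above every IF value. Its log2 fold change was 0.23 ± 0.081 (adjusted p = 0.0514) in IF against control, just outside the threshold, and without control 2 it was 0.20 (adjusted p = 0.0899). It passed without IF 5, at 0.29 (adjusted p = 0.0129), and with median scaling, at 0.22 (adjusted p = 0.0161). Nr3c1 was called higher in PBMC-hCG against IF, at 0.39 ± 0.081 (adjusted p = 0.0258), and that call was lost without each of IF 2, 4 and 5 and PBMC-hCG 2, 3, 4 and 5 in turn (adjusted p from 0.0534 to 0.0919). The mineralocorticoid receptor gene Nr3c2 was not called in either comparison at 0.40 ± 0.26 (adjusted p = 0.3) and 0.71 ± 0.26 (adjusted p = 0.0656). Its value in IF against control ran from 0.22 to 0.55 when 1 mouse was left out. Hsd11b1, which regenerates active glucocorticoid, had -0.46 ± 0.37 (adjusted p = 0.414) in IF against control and 31.4 TPM in control 2, and without that mouse the value was -0.061 (adjusted p = 0.902). Hsd11b2, which inactivates it, had -0.072 ± 0.24 (adjusted p = 0.872) there and -0.71 ± 0.24 (adjusted p = 0.054) in PBMC-hCG against IF. The progesterone receptor gene Pgr was higher in IF than in control, 1.71 ± 0.14 (adjusted p = 1.44e-07), and was not called between PBMC-hCG and IF (-0.42 ± 0.14, adjusted p = 0.0514). In PBMC-hCG against IF the threshold was passed by Pgr without each of IF 3 and PBMC-hCG 1 in turn (adjusted p from 0.0138 to 0.0369), by Nr3c2 without each of IF 3 and PBMC-hCG 1 in turn (adjusted p from 0.0199 to 0.0489) and by Hsd11b2 without each of IF 1 and 3 and PBMC-hCG 1 in turn (adjusted p from 0.0117 to 0.0435). Esr1 was higher in IF than in control at 0.51 ± 0.058 (adjusted p = 5.98e-06), and at 0.061 ± 0.058 (adjusted p = 0.475) in PBMC-hCG against IF.

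Across the 15 mice given RU486, each of the 9 genes was correlated with Nr3c1 on the log2 scale, 9 relations in all, by 2-sided permutation tests. For 8 of 9 the Pearson r had a permutation p under 0.05, but so had 55.8% of 18705 genes tested, so the count is read against a high background. Tsc22d3 rose with Nr3c1, r = 0.945 (permutation p = 1.0e-05; rho = 0.925, permutation p = 1.0e-05), the p being the smallest these permutations can give. Cdkn1c had r = 0.919 (permutation p = 1.0e-05; rho = 0.896, permutation p = 3.00e-05) and Zbtb16 r = 0.861 (permutation p = 4.00e-05; rho = 0.814, permutation p = 4.00e-04). Fkbp5 ran the other way, r = -0.855 (permutation p = 7.00e-05; rho = -0.886, permutation p = 2.00e-05). Cdkn1a did too, r = -0.85 (permutation p = 8.00e-05; rho = -0.825, permutation p = 2.00e-04). Sult1a1 had r = 0.766 (permutation p = 6.80e-04; rho = 0.782, permutation p = 8.10e-04). Adjusted over all genes, these 6 had p between 1.34e-04 and 0.00293. The share of all genes with an r at least as far in the same direction was 0.524% for Tsc22d3, 2.06% for Cdkn1c, 5.34% for Fkbp5, 5.74% for Cdkn1a and 7.76% for Zbtb16. It was 16.9% for Sult1a1, 18.4% for Errfi1, 30.9% for Pdk4 and 31.1% for Dusp1.

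The remaining 3 relations with Nr3c1 were weaker. Errfi1 had r = -0.596 (permutation p = 0.0191; rho = -0.621, permutation p = 0.0154) and Pdk4 r = 0.576 (permutation p = 0.0254; rho = 0.629, permutation p = 0.0143), with p adjusted over all genes of 0.0388 and 0.0506. Dusp1 had r = -0.267 (permutation p = 0.336; rho = -0.229, permutation p = 0.409), adjusted p = 0.43. Its r ran from -0.386 to -0.101 when 1 mouse was left out. Nr3c1 differed between these groups, so values were also centred within groups and permuted within them. Centred r was 0.919 (permutation p = 2.00e-04) for Tsc22d3, -0.833 (permutation p = 4.20e-04) for Fkbp5 and 0.809 (permutation p = 0.00256) for Cdkn1c. It was 0.784 (permutation p = 0.00486) for Zbtb16, 0.786 (permutation p = 0.00269) for Pdk4 and -0.711 (permutation p = 0.00517) for Cdkn1a. Sult1a1 had 0.602 (permutation p = 0.0496), while Errfi1 had -0.29 (permutation p = 0.314) and Dusp1 -0.132 (permutation p = 0.664). In this form 7 of 9 had a permutation p under 0.05, beside 42.3% of 18705 genes. The share of genes with a centred r at least as far in the same direction was 0.593% for Tsc22d3, 2.3% for Fkbp5 and between 8.16% and 24.6% for the other 5 of those 7. Leaving out IF 5 and PBMC-hCG 2, the mice farthest from the median Nr3c1, gave r of 0.952 for Tsc22d3, 0.919 for Cdkn1c and 0.81 for Zbtb16. For Fkbp5 it was -0.808, for Sult1a1 0.787, for Cdkn1a -0.725, for Errfi1 -0.655 and for Dusp1 -0.423. Pdk4 had r = 0.459 (permutation p = 0.113) without them. Leaving out 1 mouse at a time, the Pearson r of Pdk4 no longer had a p under 0.05 without IF 5, PBMC 5, PBMC-hCG 2 or PBMC-hCG 4 (permutation p from 0.052 to 0.0628), and that of Errfi1 without PBMC-hCG 3 (permutation p = 0.0526).

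**Figure D3:**
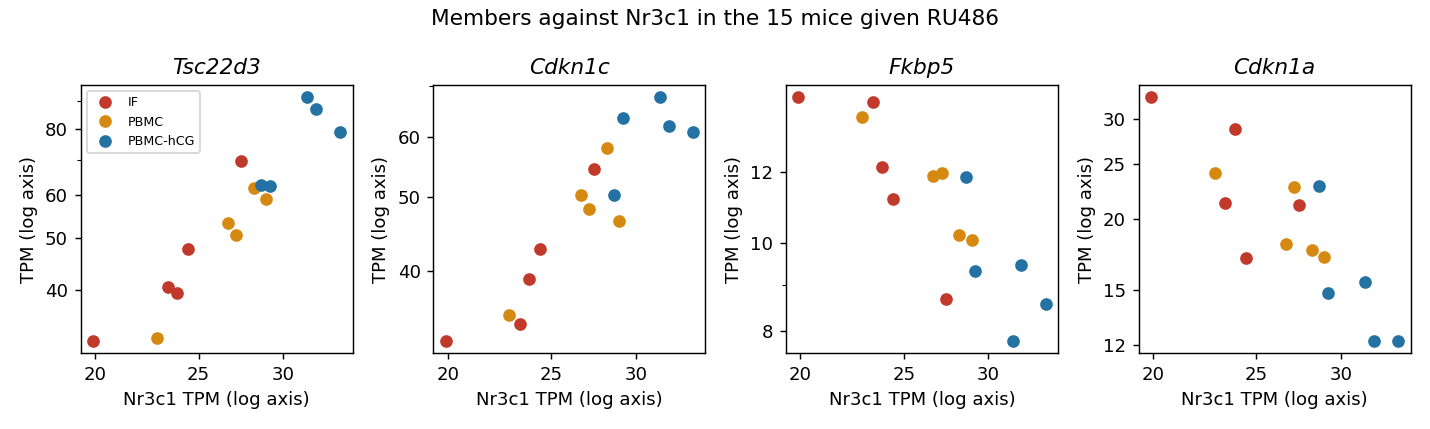
Level of Tsc22d3, Cdkn1c, Fkbp5 and Cdkn1a against that of Nr3c1 in the 15 mice given RU486 (TPM, both axes logarithmic, colours by group). Tsc22d3 and Cdkn1c run upward with r = 0.945 and 0.919, Fkbp5 and Cdkn1a downward with r = -0.855 and -0.85.

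The 9 genes did not vary as 1 block within groups. Over 36 pairs, with values of all 20 mice centred within their group, r ran from -0.899 to 0.83, and 17 pairs had an unadjusted within-group permutation p under 0.05, 11 of them positive and 6 negative. The same test gave a p under 0.05 in 22.3% of 20000 pairs drawn at random from all genes tested, 12.2% positive and 10.1% negative. Without control 2 the number was 19. These pairs were examined after the values had been seen. Tsc22d3 with Zbtb16 gave r = 0.83 (permutation p = 4.00e-05; rho = 0.814). Tsc22d3 with Pdk4 gave r = 0.791 (permutation p = 8.70e-04; rho = 0.734) and Sult1a1 with Cdkn1c r = 0.758 (permutation p = 5.70e-04; rho = 0.762). Without control 2 these 3 pairs had r of 0.849, 0.684 and 0.772. Without the 2 mice farthest from the median of the centred first gene they had 0.768, 0.585 and 0.612. Those mice were control 2 and IF 3 for Tsc22d3 and IF 3 and PBMC 4 for Sult1a1. Fkbp5 with Tsc22d3 had the lowest value, r = -0.899 (permutation p = 1.0e-05; rho = -0.833). Without control 2 this was r = -0.868, and without the 2 mice farthest from the median of centred Fkbp5, IF 3 and control 2, it was -0.817. Both mice combined low Fkbp5 with high Tsc22d3 for their group. Dusp1 with Errfi1 gave r = 0.782 (permutation p = 5.80e-04; rho = 0.792), both highest in PBMC 5 among the PBMC mice. Its r was 0.793 without control 2. Without PBMC 1 and PBMC 5, the mice farthest from the median of centred Dusp1, it was 0.636. No tissue or library feature was fitted in these correlations, and its part was not tested.

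Genes with the most similar pattern over the 20 mice were taken from 15771 tested genes with a mean of at least 1 TPM, by Pearson r of log2 levels, 3 per gene and with no test. For Fkbp5 they were Pcsk5 (0.97), Nop10 (0.969) and Spon1 (0.963), and for Tsc22d3 Aff1 (0.952), Slc6a15 (0.951) and Arl4a (0.95). Zbtb16 was nearest to Hif3a (0.982), Il13ra2 (0.981) and Pi15 (0.976). Errfi1 was nearest to Fjx1 (0.926), Afg3l2 (0.891) and Klhl2 (0.885), and Sult1a1 to Ramp1 (0.968), Kcnd2 (0.965) and Nrg4 (0.961). The immediate early genes Egr2 and Nr4a1 and the antiproliferative gene Btg2 were nearest to Dusp1, as Btg2 (0.918), Nr4a1 (0.892) and Egr2 (0.856). Cdkn1a had Sphk1 (0.945), Cmklr1 (0.939) and Krt87 (0.936), Cdkn1c Ikzf2 (0.954), Shd (0.947) and Ppm1e (0.938) and Pdk4 Hsd17b11 (0.955), Gucy2g (0.948) and Deptor (0.947). None of the 9 genes was among the nearest 3 of another.

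The 9 genes were set beside other genes of the pathway, with the list and its members chosen with earlier results of these data known. Of 28 other glucocorticoid-induced genes, 27 were tested, and in IF against control 7 were called higher and 8 lower, with a median log2 fold change of 0.21, the number higher being 4 without IF 3. Over all genes tested 13.4% were called higher and 8.53% lower there, with a median of 0.022. Hif3a, a hypoxia-inducible factor of the inhibitory kind, fell by 3.13 ± 0.25 (adjusted p = 1.44e-07), from a mean of 6.87 to 0.726 TPM. Rgs2, a brake on G protein signalling, had -2.38 ± 0.10 (adjusted p = 2.97e-11) and the metallothionein gene Mt2 -1.17 ± 0.19 (adjusted p = 1.66e-04), while the transcription factor gene Cebpb had 1.89 ± 0.33 (adjusted p = 3.80e-04). Between PBMC-hCG and IF 2 were called higher and 9 lower, with Il1r2 at -1.78 ± 0.50 (adjusted p = 0.0347), Cebpb at -1.55 ± 0.33 (adjusted p = 0.0258), Lcn2 at -1.30 ± 0.40 (adjusted p = 0.0417) and Sgk1 at -1.06 ± 0.26 (adjusted p = 0.0287). In that comparison 7.61% of all genes tested were called higher and 5.99% lower.

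Of 19 genes tested for the receptor, its ligand enzymes and its chaperones, 2 were called higher and 0 lower in IF against control: Abcb1a, a steroid exporter, at 0.62 ± 0.13 (adjusted p = 0.00269), and the receptor coactivator Ncoa3 at 0.36 ± 0.082 (adjusted p = 0.00386). Between PBMC-hCG and IF 2 were called higher and 0 lower, Abcb1a at 0.49 ± 0.13 (adjusted p = 0.0325) and Nr3c1 as given. Against control, 7 of the 19 were called higher and 5 lower in PBMC-hCG, and 4 higher and 1 lower in PBMC. Of 14 progesterone-induced uterine genes tested, 1 was called higher and 3 lower in IF against control, the latter 5 without each of control 2 and 5 in turn. Il13ra2, a decoy receptor for interleukin 13, had -4.20 ± 0.25 (adjusted p = 2.84e-09), near the size of the Zbtb16 change, Hoxa11 -1.09 ± 0.12 (adjusted p = 3.96e-06) and Hoxa10 -0.92 ± 0.13 (adjusted p = 8.34e-05), while Cyp26a1, which degrades retinoic acid, was higher at 1.15 ± 0.13 (adjusted p = 7.25e-06). In PBMC-hCG against IF 2 were called higher and 0 lower, Nr2f2 at 0.47 ± 0.14 (adjusted p = 0.0407) and Hoxa10 at 0.42 ± 0.13 (adjusted p = 0.0471). Since RU486 blocks both receptors, a fall through the glucocorticoid receptor and one through the progesterone receptor cannot be told apart for any of the 9 genes.

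Relatives of the 9 genes were read in the same way. Of 16 tested, 2 were called higher and 2 lower in IF against control. Sult1d1, a further sulfotransferase, fell with Sult1a1, at -2.85 ± 0.28 (adjusted p = 1.01e-06). Dusp5 (0.74 ± 0.24, adjusted p = 0.0341) and Dusp6 (0.48 ± 0.17, adjusted p = 0.0451), phosphatases of ERK, were called higher. Pdk1 was lower at -0.53 ± 0.17 (adjusted p = 0.0289) while Pdk4 was higher. The Dusp5 call was lost without each of control 1, 2, 3 and 4 and IF 1, 2, 3 and 5 in turn (adjusted p from 0.0536 to 0.0808) and that of Dusp6 without each of control 1, 3, 4 and 5 and IF 1, 2, 4 and 5 in turn (adjusted p from 0.0627 to 0.124). Pdk1 lost its call without each of control 3 and 4 and IF 4 and 5 in turn (adjusted p from 0.0602 to 0.0879). For PBMC-hCG against IF 5 were called higher and 1 lower, among them Dusp6 at -0.71 ± 0.17 (adjusted p = 0.0287), Pdk2 at 0.66 ± 0.21 (adjusted p = 0.0461), Pdk1 at 0.52 ± 0.17 (adjusted p = 0.0471) and Cdkn1b, the third gene of the Cdkn1a and Cdkn1c family, at 0.53 ± 0.16 (adjusted p = 0.0416).

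Each of the 21 list genes named as called in PBMC-hCG against IF, here and in the closing observations, lost its call without IF 5 and without PBMC-hCG 3, where limma called 0 of all genes tested, while 4409 and 5211 genes had an unadjusted p under 0.05. For IF against control 23 of 40 named list genes kept theirs under every setting. Without each of the 7 mice named above for PBMC-hCG against IF, limma called 0 genes of every list described here, while 55 to 71 genes over the lists had an unadjusted p under 0.05. These settings for list genes were chosen after seeing the data.

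Promoter windows of 300 bases around starts of transcripts, from RefSeq on GRCm38.p6, were found for 7 of the 9 genes, 11 windows in all; Zbtb16 and Cdkn1c were not in the table. Of these, 5 lie at starts inside the gene span given above: that of Sult1a1, 2 of the 3 of Tsc22d3, and 1 each of Cdkn1a and Errfi1. The half-site of the receptor's DNA element, TGTTCT, was searched on both strands and was present in 19% of all 32851 windows and in 2 of 11 windows of the 9 genes. The palindrome GNACANNNTGTNC, which reads the same on both strands, was present in 0.475% of all windows and in 0 of 11. The half-site occurs 2 times in the Sult1a1 window, chr7:126676369-126676668, and 1 time in the most upstream of the 3 Tsc22d3 windows, chrX:140600473-140600772. Both are shown, 5′ to 3′ on the minus strand, because they are the 2 windows of these genes that hold it; capitals mark TGTTCT or its reverse complement AGAACA. Fkbp5 and Errfi1, also lower than control in every treated group, have 0 in their windows. A match is a description of the letters and not of binding.
Sult1a1: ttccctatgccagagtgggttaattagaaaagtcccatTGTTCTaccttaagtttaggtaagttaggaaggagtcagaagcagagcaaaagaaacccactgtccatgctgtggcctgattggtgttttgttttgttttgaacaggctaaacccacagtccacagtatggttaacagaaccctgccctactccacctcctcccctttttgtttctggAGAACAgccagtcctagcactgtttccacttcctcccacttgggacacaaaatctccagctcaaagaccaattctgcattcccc
Tsc22d3: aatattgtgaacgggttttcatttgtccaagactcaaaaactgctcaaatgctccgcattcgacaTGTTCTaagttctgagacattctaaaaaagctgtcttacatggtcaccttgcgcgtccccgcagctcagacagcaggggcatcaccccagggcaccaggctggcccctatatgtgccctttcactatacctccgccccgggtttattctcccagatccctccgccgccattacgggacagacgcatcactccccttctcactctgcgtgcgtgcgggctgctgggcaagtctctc

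Gene models limit some values. On the GENCODE annotation 6 of the 9 genes, Fkbp5, Dusp1, Cdkn1a, Errfi1, Sult1a1 and Cdkn1c, overlap a gene on the opposite strand, protein-coding ones being Ergic1 at Dusp1 and Sgf29 at Sult1a1. The libraries were made with a stranded kit, but whether strand was used in assigning reads is not known, and without it reads of such a pair cannot be told apart. Fkbp5 and Dusp1 each also overlap 2 genes on the same strand, which strand would not set apart. Tsc22d3, Zbtb16 and Pdk4 overlap none.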

How the data were processed

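RNA of the uterus of 20 mice, 5 in each of 4 groups taken from the labels, was sequenced; the authors trimmed reads with Trimmomatic, aligned them to mm10 with HISAT2 and deposited TPM, made with StringTie, with no versions given. Depth is unknown, since TPM sums to a fixed total. log2(TPM + 0.1) of the 18706 genes above 0 in all 20 libraries, of 45777, was fitted with limma 3.58.1 (R 4.3.3), a variance trend and all 4 groups in 1 fit. Benjamini-Hochberg adjustment ran over all genes tested within each of 6 comparisons, and a call is an adjusted p under 0.05. Correlations used 2-sided tests with 100000 permutations, adjusted over all genes tested and not over the 9 members alone, in Python 3.11.15 with numpy 2.4.6, pandas 2.3.3 and scipy 1.17.1; figures used matplotlib 3.10.9. The limma and permutation code was tested on simulated data. Named list genes are the up to 4 per list with the largest absolute log2 fold change among those called in IF against control or PBMC-hCG against IF, plus Nr3c1, Nr3c2, Hsd11b1, Hsd11b2, Pgr and Esr1. Alternatives were pseudocounts of 0.01 and 1, other filters on low levels, median scaling, quantile normalization, a fit of the 2 groups compared, no variance trend, a replicate block, the study's cut-offs (fold change of at least 2, unadjusted p under 0.05) on the limma values and leaving out each mouse. The members and lists were chosen with earlier results of these data known, and 1 planned list gene is not reported here. Gene positions and promoter sequences are from RefSeq, GRCm38.p6.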

Additional observations from a re-analysis of the deposited data

Results flagged for a closer look

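In 4 of 36 sets of 5 values (9 genes in 4 groups) 1 mouse lay far from the other 4, with a gap to its nearest neighbour above 0.71 of the whole range, Dixon's 95% critical value for 5 samples. Chance alone does this in about 1 in 20 groups. Control 2 did so for both Tsc22d3 and Pdk4: Tsc22d3 was at 203 TPM with the next control mouse at 118 (gap 0.76 of the range), and Pdk4 at 16.7 TPM with the next at 4.87 (gap 0.84). In the PBMC-hCG group Errfi1 was at 97.3 TPM in PBMC-hCG 1 and at 55.8 in the next mouse (gap 0.769). In the IF group Sult1a1 was at 35.2 TPM in IF 3 and at 21.5 in the next (gap 0.722).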

How the results depend on the processing

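Over the 6 comparisons, 940 of 1026 alternative values for single members kept their direction and their side of the threshold, 64 fell below it, 10 passed it and 12 changed sign. The number of members called in PBMC-hCG against IF, 5, was 1 with genes above 0 in any library, where more genes were tested, 3 with only the 2 groups fitted, 5 with a replicate block, 0 with the study's cut-offs on the limma values and 0 to 7 without 1 mouse; the cause was not tested. Without 1 mouse the count was 6 to 8 in IF against control, 5 to 8 in PBMC against control and 5 to 6 in PBMC-hCG against control. The share of all genes called ran from 17.8% to 26.8%, 15.8% to 24.7% and 25.4% to 40.2% in that order. It was 0 by limma under every alternative in PBMC against IF and PBMC-hCG against PBMC. The number of members with a permutation p under 0.05 against Nr3c1, 8, was 7 to 8 without 1 mouse, an alternative chosen after seeing the data, and 7 with quantile normalization, where Pdk4 had r = 0.512 (permutation p = 0.051).

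Signs changed only in values that were not called. Without 1 mouse, PBMC against IF ran from -0.17 to 0.013 for Fkbp5, -0.24 to 0.13 for Errfi1 and -0.11 to 0.31 for Zbtb16. PBMC against control ran from -0.16 to 0.050 for Cdkn1c, and PBMC-hCG against control from -0.076 to 0.15 for Cdkn1a, which was -0.0020 with quantile normalization. For list genes, under alternatives chosen after seeing the data, IF against control ran from -0.29 to 0.034 for Hsd11b2 and PBMC-hCG against IF from -0.011 to 0.35 for Hsd11b1, and Esr1 was -0.00071 in the latter with median scaling. The cause was not tested.

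Replicate numbers were checked as pairs: deviations from the group mean correlated between mice of the same number at -0.247 to 0.457 over the 6 comparisons, with some under 0.1 in each, so they were not treated as pairs. Depth is unknown, so counting error could not be set apart from differences between mice, and the bulk tissue and groups of 5 limit every value.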

Other observations

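Among immediate early genes, Egr3 (1.71 ± 0.43, adjusted p = 0.00779), Junb (1.21 ± 0.29, adjusted p = 0.00559), Nr4a1 (1.86 ± 0.64, adjusted p = 0.0447) and Fos (1.71 ± 0.55, adjusted p = 0.0325) were higher in IF than in control by log2 fold change. The calls were lost for Nr4a1 without each of control 1, 2 and 3 and IF 1, 2 and 3 in turn (adjusted p from 0.0507 to 0.117) and for Fos without each of control 1, 2 and 3 and IF 1, 3 and 4 in turn (adjusted p from 0.059 to 0.0756). In PBMC-hCG against IF 0 higher and 2 lower were called, Fosl2 at -0.90 ± 0.19 (adjusted p = 0.0258) and Ier3 at -0.76 ± 0.21 (adjusted p = 0.0349). Of the p53 target genes, Gdf15 (1.87 ± 0.40, adjusted p = 0.00256) and Btg2 (0.89 ± 0.24, adjusted p = 0.0116) were higher and Eda2r (-0.65 ± 0.18, adjusted p = 0.0156) and Ccng1 (-0.34 ± 0.057, adjusted p = 2.94e-04) lower in IF than in control. With hCG-cultured cells, against IF, 2 higher and 1 lower were called: Gdf15 at -1.54 ± 0.40 (adjusted p = 0.0307), Eda2r at 0.72 ± 0.18 (adjusted p = 0.0292) and Ccng1 at 0.28 ± 0.057 (adjusted p = 0.0258). The cell cycle gene called in IF against control was Ccnd1, at -0.97 ± 0.29 (adjusted p = 0.0221), lost without each of control 3, 4 and 5 and IF 3 in turn (adjusted p from 0.0544 to 0.062). For PBMC-hCG against IF limma called 0 of the 16, and 1 had an unadjusted p under 0.05.

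Imprinted genes called in IF against control were Meg3 (0.84 ± 0.12, adjusted p = 7.33e-05), Igf2 (0.42 ± 0.12, adjusted p = 0.0151) and Grb10 (-0.56 ± 0.11, adjusted p = 0.00146), and in PBMC-hCG against IF Meg3 at -0.41 ± 0.12 (adjusted p = 0.0385). Of the fatty acid oxidation genes, Cpt1a (0.48 ± 0.11, adjusted p = 0.00325) and Ppard (0.43 ± 0.12, adjusted p = 0.0137) were higher in IF than in control. With the IF and control mice fitted alone the calls of Eda2r, Igf2 and Ppard and that of the epithelium marker Epcam were lost (adjusted p from 0.0555 to 0.0745). Ppard was lower in PBMC-hCG than in IF (-0.41 ± 0.12, adjusted p = 0.0363).

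Among cell type markers in IF against control, 3 higher and 0 lower of 8 myeloid markers were called: S100a9 (1.37 ± 0.47, adjusted p = 0.0413), Csf1r (0.32 ± 0.11, adjusted p = 0.0436) and Adgre1 (0.23 ± 0.081, adjusted p = 0.0459). Each call was lost without single mice: S100a9 without each of control 2, 3 and 5 and IF 1, 2 and 5 in turn (adjusted p from 0.0603 to 0.123), Csf1r without each of control 1, 3, 4 and 5 and IF 1, 3 and 5 in turn (adjusted p from 0.0653 to 0.12) and Adgre1 without each of control 1, 2, 3, 4 and 5 and IF 2, 3 and 5 in turn (adjusted p from 0.0553 to 0.117). Of 7 epithelium markers, 4 higher and 1 lower were called, with Foxa2 at -0.89 ± 0.20 (adjusted p = 0.00366), Krt18 at 0.42 ± 0.14 (adjusted p = 0.044), Krt8 at 0.38 ± 0.13 (adjusted p = 0.0499) and Epcam at 0.35 ± 0.10 (adjusted p = 0.0174). The calls were lost for Krt18 without each of control 1, 3, 4 and 5 and IF 1, 2, 3 and 4 in turn (adjusted p from 0.0535 to 0.112) and for Krt8 without each of control 1, 3, 4 and 5 and IF 1, 3 and 4 in turn (adjusted p from 0.0513 to 0.136). Of 7 stroma markers, Dcn was higher (0.84 ± 0.087, adjusted p = 1.98e-06) and Hoxa10 lower. Acta2, a myometrium marker, was lower (-0.42 ± 0.14, adjusted p = 0.0367), lost without each of control 1, 3, 4 and 5 and IF 1, 2, 3 and 5 in turn (adjusted p from 0.0528 to 0.0986) and joined by others without control 2, where 3 myometrium markers were called lower, and so was Ovgp1 of the ovary and oviduct list (-0.93 ± 0.30, adjusted p = 0.0314), lost without each of control 4 and 5 and IF 1, 2 and 4 in turn (adjusted p from 0.0556 to 0.0885). Of the 9 T, B and NK cell markers, 2 adipose markers and 6 reference genes tested, limma called 0, and 1, 0 and 0 had an unadjusted p under 0.05. In PBMC-hCG against IF, Krt8 (0.45 ± 0.13, adjusted p = 0.0392) and the stroma markers Pdgfra (0.40 ± 0.12, adjusted p = 0.0403) and Hoxa10 were higher, and limma called 0 of the T, B and NK cell, myeloid, myometrium, adipose, ovary and oviduct and reference lists, where 1, 0, 3, 0, 2 and 2 genes had an unadjusted p under 0.05. The calls named here for PBMC-hCG against IF were all lost under 1 or more alternatives.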
